A study of Mus musculus with 7 samples.

Results

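The S100 genes encode a family of small calcium-binding proteins, and 10 of them (S100a1, S100a4, S100a6, S100a8, S100a9, S100a10, S100a11, S100a13, S100a14 and S100a16) were taken by symbol from the 33710 genes measured in mammary tumors of 7 mice. All 10 members were found and all 10 passed the filter on low counts. Single-cell RNA sequencing was done by Drop-seq, in which each cell is captured in a droplet with a barcoded bead and each captured mRNA molecule is counted once through its unique molecular identifier (UMI). The mice were MMTV-PyMT; HK2 f/f, with the labelled genotype Wild type, on a C57BL/6 background. Polyoma middle T antigen was driven by the mammary tumor virus promoter, which is active in mammary epithelium, so the tumors arose spontaneously. The hexokinase 2 gene was floxed but no Cre was present, and per the study's methods these controls also received tamoxifen for 7 days. The labels place collection 3 months after a tumor became palpable, while the study's methods give tumor size as the end point. By their titles, replicates 1 to 4 belong to a CB series and replicates 5, 7 and 8 to a WT series. Tumors lacking hexokinase 2 were not analysed here.

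S100 proteins are small dimers in which paired EF-hand loops bind calcium. Calcium binding exposes a surface that docks onto other proteins, so most members act inside the cell as calcium sensors and some also act outside it as signals for receptors. S100a8 and S100a9 form calprotectin, a metal-sequestering complex that is abundant in neutrophils and monocytes. S100a4 binds nonmuscle myosin, S100a6 binds the calcyclin-binding protein Cacybp, S100a10 forms a complex with annexin A2, and S100a11 binds annexin A1. S100a13 takes part in the release of Fgf1, S100a1 is best known from muscle, and S100a14 and S100a16 are found in epithelia. In mammary tumors S100a4 is known for its link to metastasis and S100a8 and S100a9 for their link to myeloid cells.

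The members lie on chromosome 3 of the GRCm38 build. S100a1 (90511034 to 90514392, minus strand), S100a13 (90514435 to 90524581, plus), S100a14 (90526856 to 90528837, plus), S100a16 (90537254 to 90543151, plus), S100a4 (90603771 to 90606045, plus), S100a6 (90612882 to 90624181, plus), S100a8 (90668978 to 90670035, plus) and S100a9 (90692632 to 90695721, minus) fall within 185 kb. S100a11 (93520488 to 93526287, plus) and S100a10 (93555080 to 93564643, plus) lie 2.82 Mb farther on. Promoter sequences are given for S100a8 and S100a9, which lie 22.6 kb apart and whose levels came apart in the tumor cells, and for the 42 bases between the divergent starts of S100a1 and S100a13. They run 5′ to 3′ on the strand of the gene (plus strand for the shared interval), from RefSeq annotation on GRCm38.p6. Capitals mark matches to TTNCNNAA, a C/EBP-type motif, or to GAGGAA, an ETS-type motif.
S100a8, chr3:90668821-90668977, plus: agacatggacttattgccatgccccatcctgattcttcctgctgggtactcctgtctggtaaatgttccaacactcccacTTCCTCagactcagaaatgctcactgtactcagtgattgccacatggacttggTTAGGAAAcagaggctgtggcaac
S100a9, chr3:90695722-90695971, minus: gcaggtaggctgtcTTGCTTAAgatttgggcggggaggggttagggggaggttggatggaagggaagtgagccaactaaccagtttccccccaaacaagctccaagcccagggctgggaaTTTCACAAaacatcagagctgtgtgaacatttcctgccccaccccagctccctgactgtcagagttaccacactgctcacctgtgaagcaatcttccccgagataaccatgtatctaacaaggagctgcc
S100a1 to S100a13, chr3:90514393-90514434, plus: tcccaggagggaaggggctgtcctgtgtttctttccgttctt

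The S100a8 window held TTNCNNAA on the minus strand, 24 to 17 bases before the start, and GAGGAA on the minus strand, 77 to 72 bases before it. The S100a9 window held TTNCNNAA on the plus strand at 236 to 229 and at 130 to 123 bases before the start. TATAAA (the TATA box) and TGANTCA (an AP-1-type motif) were searched on both strands as well and had no match in these windows. Such matches are common: of 32851 promoters, 23.7% held TTNCNNAA and 15.1% held GAGGAA in a window of 157 bases, and 36.8% held TTNCNNAA in 250 bases. RefSeq entries were matched for 8 of the 10 members, all but S100a10 and S100a14.

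The 7 libraries gave 15047 cells with 200 to 6000 genes among 37000 barcodes, 1133 to 4780 cells per mouse, with a median of 527 to 694 UMIs per cell. At most 1 kept barcode was shared between any pair of libraries. Cells were clustered without the members and grouped into 8 classes by fixed marker lists. The classes were tumor cells of alveolar type (6158 cells), hormone-sensing luminal cells (1706), myoepithelial cells (276), fibroblasts (1029), endothelial cells (146), C1q macrophages (1915), other myeloid cells (720) and T/NK cells (2215). Every marker of a class's own list was higher in that class than in the others, and none was at 0. The same lists named the clusters, so this is not an independent check of the classes. The lists with the smallest share of markers found in 10% of a class's cells were granulocyte (1 of 8), monocyte or dendritic (4 of 11) and myoepithelial (5 of 9). The other myeloid class held monocyte or dendritic markers and also granulocyte markers, all 8 of which were higher there than elsewhere. UMIs were summed per mouse and class, and levels are given as UMIs per 1000000 UMIs of those sums (CPM). Myoepithelial sums came from 5 mice and endothelial sums from 3, the other classes from 7. UMIs come from mRNA 3′ ends and are not scaled by length, so levels are compared between classes for a gene. Where genes stand together, as a sum or as the ratio of S100a8 to S100a9, the sum or ratio is what is compared between classes.

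**Figure D1:**
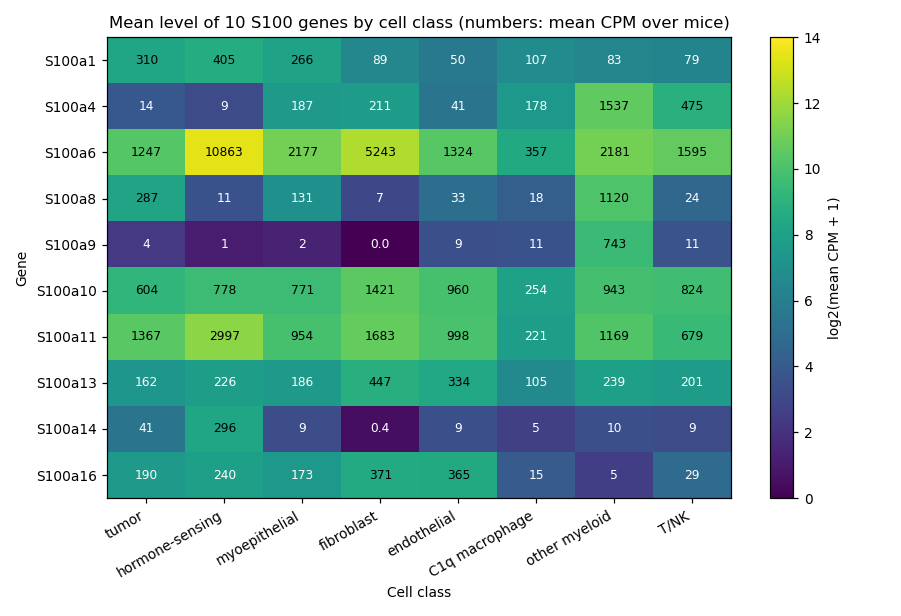
Mean level of each S100 gene (rows) in each cell class (columns), as CPM averaged over 3 to 7 mice and colored by log2(CPM + 1). S100a6 reached 10863 CPM in hormone-sensing cells and 357 in C1q macrophages, and S100a9 exceeded 11.2 CPM in other myeloid cells alone.

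The summed level of the 10 members was 15824 ± 3912 CPM (SD, n = 7) in hormone-sensing cells, 9474 ± 2227 in fibroblasts, 8030 ± 2456 in other myeloid cells, 4226 ± 898 in tumor cells and 1271 ± 300 in C1q macrophages. By mouse the sums were 8953 to 20856 CPM in hormone-sensing cells and 3004 to 5788 in tumor cells, so these 2 classes did not overlap. S100a6 alone had means of 10863 CPM in hormone-sensing cells and 5243 in fibroblasts, and so made up most of the sum there. In other myeloid and tumor cells its means were 2181 and 1247 CPM.

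Each class was compared with the tumor cells of the same mice, and other myeloid cells also with C1q macrophages, by edgeR's quasi-likelihood test with Benjamini-Hochberg adjustment over 5508 genes. The filter on low counts keeps a gene that is high enough in a few sums, so a member can pass through 1 class. S100a14 reached that level in hormone-sensing cells alone and S100a9 in other myeloid cells alone. Their higher calls there are thus not independent of the filter, though these calls were also made with no filter. The comparisons with tumor cells share the same tumor sums. Shares of all genes were counted for the main fit alone, so numbers of members under alternatives have no such share beside them. In hormone-sensing cells 3 members were higher and 1 was lower, where 13.2% and 16.6% of all genes tested were called. The median log2 fold change of the members was 0.33 and that of all genes −0.07. In fibroblasts 5 were higher and 3 lower, against 26.2% and 22.4% of all genes. The members' median was 0.76 there, also with S100a9 set at its bound, and that of all genes −0.03. In myoepithelial cells 2 were higher and 2 lower, against 13.6% and 11.7%, with medians of −0.32 and −0.11. The split was 5 higher and 0 lower with classes from barcode markers alone, 3 and 0 by DESeq2, and 1 and 4 with no filter on low counts. It was 2 and 0 without replicate 4, 1 and 1 without replicate 5, and 1 and 2 without replicate 1. In endothelial cells 1 was higher and 1 lower, against 10.3% and 10.5%, with medians of 0.18 and −0.32, and the total was 1 without replicate 5 or without replicate 8. With at least 500 genes, with classes from barcode markers alone or with no filter on low counts, 0 were higher and 3 lower. By DESeq2 3 were higher and 1 lower.

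Among immune classes, C1q macrophages had 1 member higher and 7 lower than tumor cells, where 26.4% and 24.3% of all genes were called. The members' median log2 fold change was −1.39 and that of all genes −0.05. In T/NK cells 3 were higher and 5 lower, against 26.8% and 25.5%, with medians of −0.29 and −0.01. The number higher in T/NK cells was 1 without replicate 2 or without replicate 5 and 2 when any other mouse was left out, and 1 under 7 other alternatives. Other myeloid cells had 6 higher and 3 lower, against 21.4% and 23.9%, with medians of 0.68 and −0.15. At a clustering resolution of 1.0, and with classes from barcode markers alone, 3 were higher and 3 lower. Set against C1q macrophages, other myeloid cells had 7 members higher and 0 lower, while 4.08% of all genes were called higher and 8.44% lower. The medians were 1.91 for the members and −0.16 for all genes. No member was lower in this comparison at an unadjusted edgeR p under 0.05 either, and DESeq2 also called 7 higher and 0 lower. The share of all genes was not counted at that threshold or by DESeq2. With classes from barcode markers alone 6 were higher and 1 lower, S100a1 at −1.39 (edgeR adjusted p = 0.0264).

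**Figure D2:**
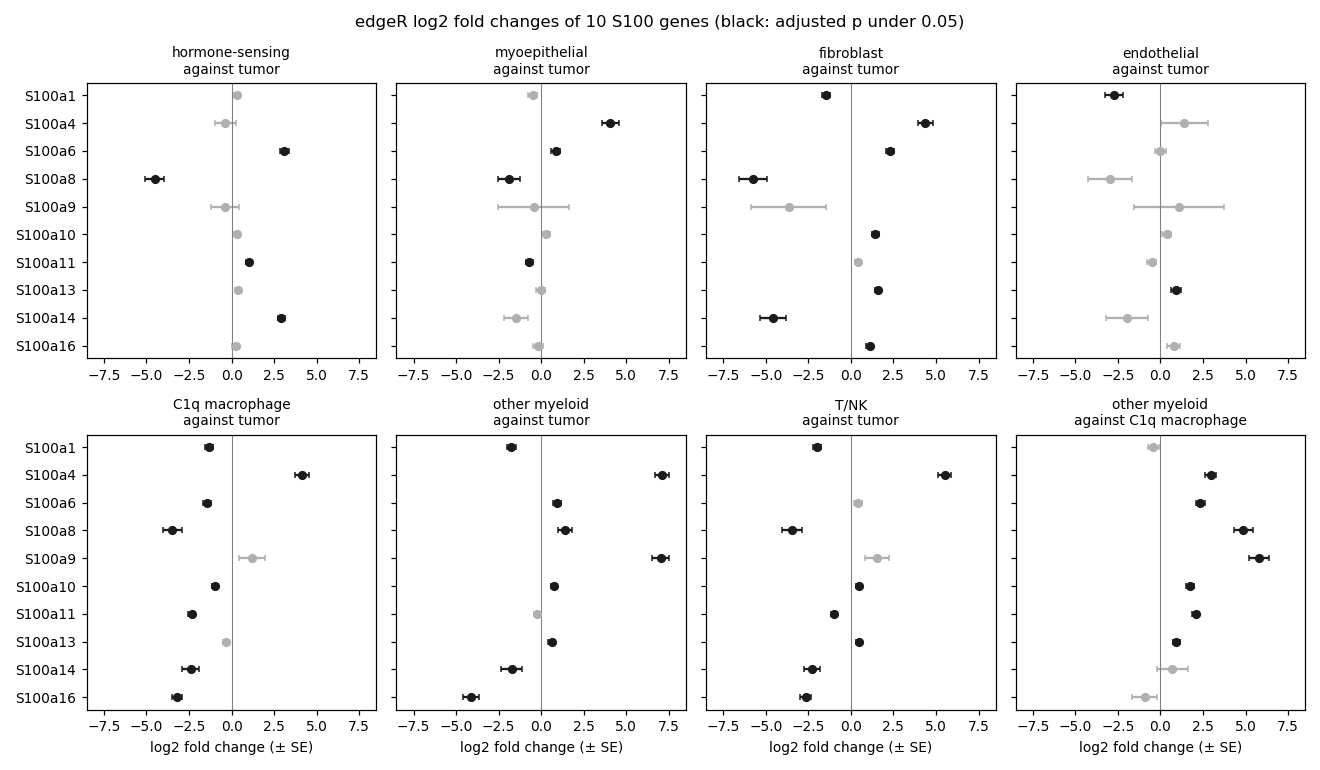
edgeR log2 fold changes (x axis) of the 10 members (y axis) in the 8 comparisons, with bars of 1 SE derived from the F test. Black points passed an adjusted p of 0.05 and gray points did not. S100a4 lies farthest to the right in other myeloid cells against tumor cells, at 7.09, and S100a8 farthest to the left in fibroblasts, at −5.73.

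S100a6, or calcyclin, had its highest mean level in hormone-sensing cells. It ranged from 5180 CPM to 14670 over the 7 mice there, with a median of 11839 and a mean of 10863 ± 2949. In tumor cells it ranged from 496 to 2531 CPM, with a median of 1154. Hormone-sensing and tumor levels did not overlap, and the log2 fold change was 3.11 (SE 0.24, edgeR adjusted p = 5.53e-17, higher in 7 of 7 mice). The lowest hormone-sensing value came from replicate 5, the other 6 lying at 9383 CPM or above.

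Fibroblasts were second, at 3530 to 7161 CPM with a median of 4962. Their S100a6 log2 fold change over tumor cells was 2.31 (SE 0.24, edgeR adjusted p = 4.65e-13, higher in 7 of 7 mice). The third to the seventh class, other myeloid, myoepithelial, T/NK, endothelial and tumor cells, had means from 2181 down to 1247 CPM, and no 2 neighbors in that order differed by more than the larger of their SDs. C1q macrophages were lowest, at 238 to 601 CPM with a median of 312, and their log2 fold change against tumor cells was −1.45 (SE 0.24, edgeR adjusted p = 6.39e-07, lower in 7 of 7 mice). With cells limited to 500 or more genes this difference was −0.04 (adjusted p = 0.908), and with 9 principal components −0.14 (adjusted p = 0.649). S100a6 UMIs were found in 94.6% of hormone-sensing cells and 17.7% of C1q macrophages, whose median depths were 866 and 549 UMIs. After every cell was thinned to 300 UMIs, with 154 and 135 shallower cells left out, S100a6 was found in 88.3% and 8.65%.

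In myoepithelial cells S100a6 ranged from 1832 to 2691 CPM with a median of 1922, against tumor cells a log2 fold change of 0.84 (SE 0.26, edgeR adjusted p = 0.0106, higher in 4 of 5 mice). The adjusted p was 0.178 without replicate 1 and 0.110 without replicate 5, and with no filter on low counts the value was 0.24 (adjusted p = 0.669). In other myeloid cells the S100a6 log2 fold change over tumor cells was 0.91 (SE 0.23, adjusted p = 0.000884, higher in 6 of 7 mice), and at a clustering resolution of 1.0 it was 0.28 (adjusted p = 0.332) and with classes from barcode markers alone 0.37 (adjusted p = 0.221).

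S100a14, an epithelial member, was highest in hormone-sensing cells and second in tumor cells. With classes from barcode markers alone, myoepithelial cells came above tumor cells (log2 fold change 3.05, edgeR adjusted p = 2.80e-06). Hormone-sensing cells held 106 to 424 CPM with a median of 312, and tumor cells 21.4 to 73.3 with a median of 31.8. The groups did not overlap, and the log2 fold change was 2.92 (SE 0.21, edgeR adjusted p = 5.41e-18, higher in 7 of 7 mice). Means in the other 6 classes were 9.79 CPM or less, each resting on 8 UMIs or fewer. Fibroblasts had 1 UMI against 286 in tumor cells, a level ratio of 0.0278 with an exact counting interval of 0.000701 to 0.156. S100a14 was lower than in tumor cells in C1q macrophages (log2 fold change −2.41, adjusted p = 1.70e-05), in T/NK cells (−2.27, adjusted p = 5.48e-05, but −0.48 and 0.368 with 9 principal components and −1.67 and 0.0629 with classes from barcode markers alone) and in other myeloid cells (−1.73, adjusted p = 0.0164, but 0.0746 without replicate 4).

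S100a11, the annexin A1 partner, was also highest in hormone-sensing cells. It ranged from 1834 to 4989 CPM there with a median of 2495, and from 906 to 1937 CPM in tumor cells with a median of 1272. These ranges overlapped, but hormone-sensing cells were higher in 7 of 7 mice, with a log2 fold change of 1.0 (SE 0.17, edgeR adjusted p = 2.97e-06). In the 3 WT series mice alone it was 0.83 with an adjusted p of 0.0736. S100a11 was lower than in tumor cells in C1q macrophages, at 99.8 to 387 CPM with a median of 186 (log2 fold change −2.34, SE 0.19, adjusted p = 1.12e-16, lower in 7 of 7 mice).

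T/NK cells held 499 to 908 CPM of S100a11 with a median of 610 and were lower than tumor cells in 7 of 7 mice (log2 fold change −0.995, SE 0.18, edgeR adjusted p = 4.79e-06). Myoepithelial cells ranged from 454 to 1592 CPM, with a log2 fold change of −0.69 (adjusted p = 0.0106, lower in 4 of 5 mice). That adjusted p was 0.142 without replicate 4, 0.185 by DESeq2 and 0.524 with classes from barcode markers alone (−0.24). Fibroblasts, at 885 to 2599 CPM, had a log2 fold change of 0.40 that missed the threshold (adjusted p = 0.0505). The adjusted p was 0.0362 without replicate 4 and 0.0411 without replicate 7. By DESeq2 the log2 fold change was 0.63 (adjusted p = 0.000912), and with no filter on low counts its sign turned (−0.02). Several processed pseudogenes resemble the S100a11 transcript, and the authors' counting could have split reads with them: Gm7665 had 1084 UMIs and Gm12854 had 582, against 22574 for S100a11.

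**Figure D3:**
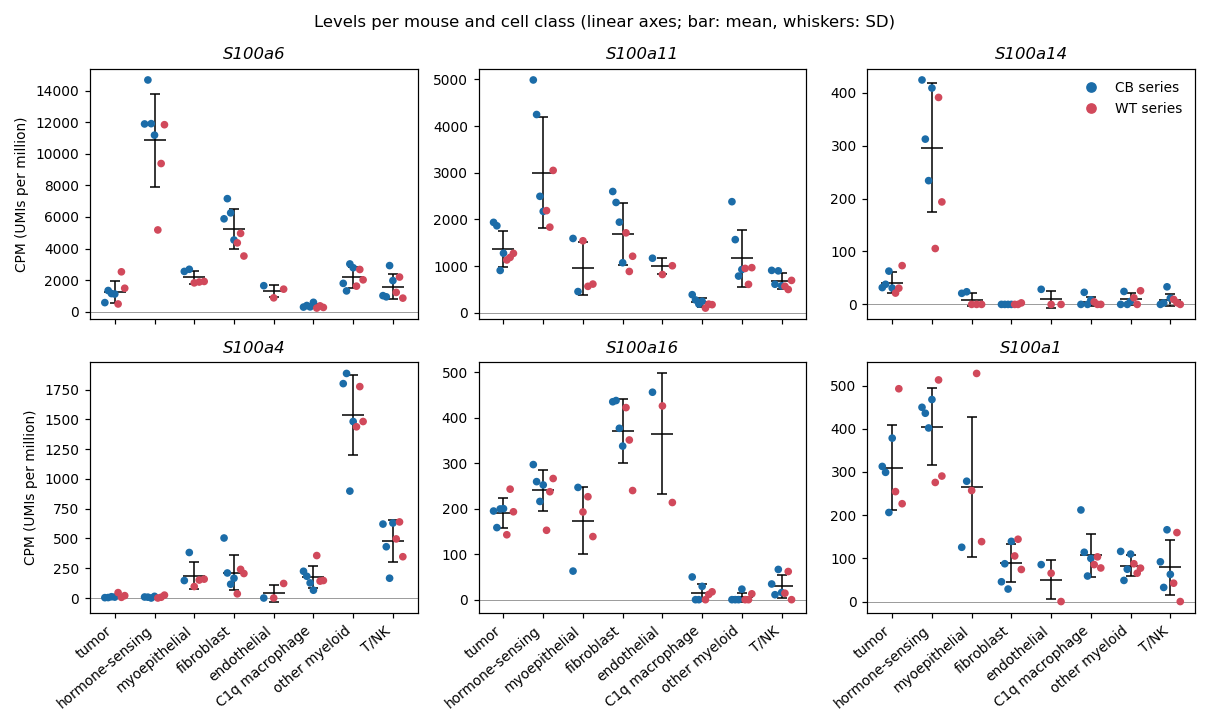
CPM of 6 members (1 panel each) in every mouse and cell class, on linear axes. Points are mice, blue for the CB series and red for the WT series, the bar is the mean and whiskers are 1 SD. S100a6 and S100a14 in hormone-sensing cells lie above every tumor value, and S100a4 in other myeloid cells lies at 898 CPM or above.

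S100a8, a calprotectin subunit, was detected in tumor cells of every mouse, where S100a9 UMIs were few. Tumor cells held 138 to 514 CPM of S100a8, with a median of 260 and a mean of 287 ± 156. Their S100a9 level was 0 to 16.7 CPM with a median of 2.54. S100a8 was thus present in all 7 mice and S100a9 at or near 0 in most. Over all tumor cells there were 2586 S100a8 UMIs and 42 S100a9 UMIs, so S100a8 made up 98.4% of the pair (95% exact binomial interval 97.8% to 98.8%), and 89.2% to 100% by mouse. In other myeloid cells the counts were 422 and 315, a share of 57.3% (53.6% to 60.9%), lower than in tumor cells in each of the 5 mice with such UMIs. Barcodes with fewer than 200 genes, which were not counted as cells, held 1813 and 1519, a share of 54.4% (52.7% to 56.1%). These intervals cover counting error alone. The ratio of S100a8 to S100a9 UMIs was thus 61.6 in tumor cells, 1.34 in other myeloid cells and 1.19 in the small barcodes. The tumor counts leave out the hemoglobin-rich cells, which had PYMT among their leading genes and held 122 S100a8 and 39 S100a9 UMIs. Replicate 4 held 26 of the 42 tumor S100a9 UMIs, and without it the tumor ratio was 148. By mouse the tumor ratio ran from 8.27 in replicate 4 to 782 in replicate 1, and replicate 8 had 0 S100a9 UMIs.

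**Figure D4:**
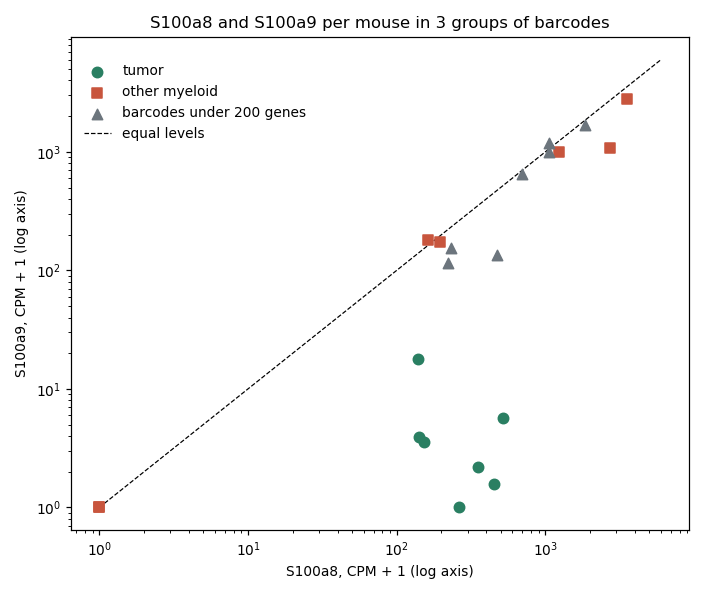
S100a8 (x) against S100a9 (y) as CPM + 1 on log axes, with 1 point per mouse for tumor cells, other myeloid cells and barcodes under 200 genes. The dashed line marks equal levels, and the point at the lower left covers 2 mice (replicates 1 and 8) with 0 UMIs of either gene in other myeloid cells. All 7 tumor points lie between 138 and 514 CPM of S100a8 and at 16.7 CPM or less of S100a9, apart from the other points with UMIs.

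Tumor S100a8 was carried by a minority of cells. Of 6158 tumor cells, 570 (9.26%) had an S100a8 UMI, and 297 of these had exactly 1. In T/NK cells the share was 0.722%. The median depths were 684 and 419 UMIs, and after thinning to 300 UMIs the shares were 4.32% and 0.560%. In the other classes the unthinned share ran from 0.389% in fibroblasts to 3.62% in myoepithelial cells. After thinning it was 0.840% in myoepithelial cells and 3.24% in other myeloid cells, the latter near the tumor share. By mouse the thinned shares overlapped, at 0 to 10.5% in other myeloid cells and 1.65% to 7.54% in tumor cells. The top 1% of tumor cells held 61.1% of the S100a8 UMIs, and a single cell held 206. S100a9 UMIs were found in 24 tumor cells.

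A set of 109 tumor cells had 5 or more S100a8 UMIs and held 71.9% of the tumor S100a8 UMIs. It was defined by S100a8 after its counts were seen, so the following is a description. All 7 mice contributed, with 33 cells from replicate 1, 43 from replicate 7 and 2 to 11 from each of the others. These cells had a median of 2322 UMIs, and the other tumor cells 674. They held 7230 CPM of Saa1 and 3746 of Saa2, acute-phase proteins, where the other tumor cells held 900 and 411. Of the 109 cells, 69 lay in the tumor cell cluster led by Saa1 and Spp1 that is described below. They were 2.55% of that cluster, against 0.491% to 1.51% of the other tumor clusters. This description and that of the cluster thus share cells. Spp1, or osteopontin, was at 10080 CPM against 4240, and Slpi, a secreted protease inhibitor, at 1486 against 510. These 4 genes were higher in the set in 6 of the 6 mice with at least 3 such cells. Of the granulocyte markers, Csf3r, Retnlg and Cxcr2 alone were counted in the set, at 0, 0 and 1 UMIs. Csf3r and Cxcr2 were sparse elsewhere too, with 3 UMIs each in the 15 other myeloid cells with 5 or more S100a8 and S100a9 UMIs. The source of the set's S100a8 was not tested. The set held 17 S100a9 UMIs, all in 1 cell.

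Several classes had less S100a8 than tumor cells. Hormone-sensing cells held 0 to 33.9 CPM with a median of 5.87, below tumor cells in 7 of 7 mice with no overlap (log2 fold change −4.51, SE 0.56, edgeR adjusted p = 8.24e-10). Against tumor cells the log2 fold change was −5.73 in fibroblasts (5 UMIs, adjusted p = 2.24e-08), −3.49 in C1q macrophages (33 UMIs, adjusted p = 3.50e-07) and −3.45 in T/NK cells (48 UMIs, of which 43 in replicate 7, adjusted p = 3.81e-07), lower in 7 of 7 mice in each. In myoepithelial cells it was −1.90 (adjusted p = 0.0256, 0 to 453 CPM, 23 UMIs), and the adjusted p rose to 0.0965 without replicate 4 and 0.0607 without replicate 5. With classes from barcode markers alone it was −0.06 (adjusted p = 0.969).

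In other myeloid cells S100a8 ranged from 0 to 3517 CPM with a median of 196, and S100a9 from 0 to 2777 with a median of 179. Replicates 1 and 8 were at 0 for each gene, where 3 UMIs would equal 87.1 and 38.7 CPM, and replicates 3, 5 and 7 were at 987 CPM or more. The spread between mice exceeded the means, which were 1120 ± 1451 CPM for S100a8 and 743 ± 1005 for S100a9. S100a9 was higher than in tumor cells by a log2 fold change of 7.01 (SE 0.49, edgeR adjusted p = 2.32e-17, higher in 5 of 7 mice). An exact sign-flip test over the 7 mice gave p = 0.0625. For S100a8 the log2 fold change was 1.38 (SE 0.41, edgeR adjusted p = 0.00451, higher in 5 of 7 mice), but the adjusted p was 0.112 without replicate 3, 0.0537 without replicate 7 and 0.258 by DESeq2. The mean over mice of the log2 difference was −1.06 for S100a8, so that its sign turned (two-sided exact sign-flip p = 0.625).

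Against C1q macrophages the log2 fold changes were 4.87 for S100a8 (edgeR adjusted p = 6.51e-10) and 5.79 for S100a9 (adjusted p = 1.55e-11), each higher in 5 of 7 mice. The exact sign-flip p-values were 0.0938 and 0.125. These UMIs were concentrated: 26 of 720 other myeloid cells (3.61%) had any S100a8 or S100a9 UMI, and the 20 highest cells held 99.2% of the 737 UMIs. The 15 cells with 5 or more came from replicates 2, 3, 4, 5 and 7, with 1 to 6 cells each. They held 8956 CPM of Retnlg and 14876 of Il1b, granulocyte-list genes, against 8.22 and 3452 in the other cells of the class. Ccr2, a monocyte receptor, was at 152 CPM (1 UMI) against 873. Granulocyte-list genes moved with these UMIs, and their part in the class difference was not tested. S100a9 in T/NK cells rested on 24 UMIs, of which 22 came from replicate 7, and missed the threshold against tumor cells (log2 fold change 1.54, adjusted p = 0.0649), while without replicate 4 it was 2.75 (adjusted p = 0.000860) and without replicate 7 it was −1.08 (adjusted p = 0.465).

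S100a4, the metastasis-associated myosin-binding member, was higher in other myeloid cells, T/NK cells, fibroblasts, C1q macrophages and myoepithelial cells than in tumor cells. Other myeloid cells held 898 to 1885 CPM with a median of 1482, and tumor cells 2.89 to 45.2 with a median of 7.72. No value overlapped, and the log2 fold change was 7.09 (SE 0.40, edgeR adjusted p = 5.65e-24, higher in 7 of 7 mice). In the tumor cells the highest value, from replicate 5, rested on 38 UMIs in 5 cells. S100a4 was found in 32.6% of other myeloid cells and 0.254% of tumor cells thinned to 300 UMIs, and in 47.6% and 0.715% of cells unthinned, at median depths of 532 and 684 UMIs.

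T/NK cells were second in S100a4, at 166 to 639 CPM with a median of 496 (log2 fold change over tumor cells 5.52, SE 0.39, edgeR adjusted p = 3.31e-19, higher in 7 of 7 mice). Other myeloid and T/NK levels did not overlap. Fibroblasts (35.2 to 504 CPM, median 206), myoepithelial cells (96.4 to 382, median 151) and C1q macrophages (65.4 to 356, median 147) followed and overlapped each other. The log2 fold changes over tumor cells in these 3 classes were 4.39, 4.07 and 4.14, with adjusted p-values of 3.44e-14, 2.94e-09 and 1.14e-13. They were higher in 6 of 7, 5 of 5 and 7 of 7 mice. In replicate 5 fibroblasts held 35.2 CPM and tumor cells 45.2. Between the myeloid classes, other myeloid cells exceeded C1q macrophages in 7 of 7 mice (log2 fold change 2.95, SE 0.34, adjusted p = 2.65e-10). Hormone-sensing cells, at 0 to 24.2 CPM, did not pass the test against tumor cells (log2 fold change −0.36, adjusted p = 0.714, higher in 5 of 7 mice and lower in 2). Without replicate 5, which held the highest tumor value, the log2 fold change was 0.47 (adjusted p = 0.552). Endothelial cells, with 4 UMIs and 0 in 2 of 3 mice, did not pass it either (1.41, adjusted p = 0.526), and all 4 UMIs came from replicate 8. A read-through gene, Gm42674, overlaps S100a4 in the annotation and had 0 UMIs.

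S100a10, the calcium-insensitive partner of annexin A2, was highest in fibroblasts. Fibroblasts held 1152 to 1809 CPM with a median of 1259, and tumor cells 416 to 1066 with a median of 495, so the groups did not overlap (log2 fold change 1.44, SE 0.18, edgeR adjusted p = 7.80e-10, higher in 7 of 7 mice). Endothelial, other myeloid, T/NK, hormone-sensing and myoepithelial means, from 960 down to 771 CPM, were within the SD of their neighbors. C1q macrophages were lowest, at 160 to 486 CPM with a median of 219 (log2 fold change −0.98 against tumor cells, adjusted p = 2.33e-05, lower in 6 of 7 mice). With cells of 500 or more genes this was −0.06 (adjusted p = 0.807), and with 9 principal components 0.0067 (adjusted p = 0.981).

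S100a10 was higher in other myeloid cells than in C1q macrophages in 7 of 7 mice (661 to 1250 CPM, log2 fold change 1.73, SE 0.21, edgeR adjusted p = 1.24e-09). Over tumor cells the log2 fold change in other myeloid cells was 0.76 (adjusted p = 0.000688), and at a clustering resolution of 1.0 it was −0.30 (adjusted p = 0.242) and with classes from barcode markers alone 0.12 (adjusted p = 0.712). In T/NK cells it was 0.50 (adjusted p = 0.0211, higher in 7 of 7 mice). The T/NK call was lost without replicate 2, 4, 5 or 7, with adjusted p-values of 0.0615, 0.103, 0.210 and 0.102, and with no filter on low counts the value was 0.12 (adjusted p = 0.888). S100a11 and S100a6 were also higher in other myeloid cells than in C1q macrophages in 7 of 7 mice, with log2 fold changes of 2.08 (adjusted p = 1.14e-12) and 2.35 (adjusted p = 3.18e-11).

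S100a13, linked to Fgf1 release, was highest in fibroblasts, at 280 to 641 CPM with a median of 455. Tumor cells held 112 to 229 CPM with a median of 170, below every fibroblast value (log2 fold change 1.60, SE 0.16, edgeR adjusted p = 2.80e-13, higher in 7 of 7 mice). In endothelial cells S100a13 was at 305 to 370 CPM in 3 mice (log2 fold change 0.89, adjusted p = 0.0225, and 0.37 and 0.552 with classes from barcode markers alone), but the adjusted p was 0.251 without replicate 5 and 0.128 without replicate 8. In other myeloid cells it was 167 to 299 CPM (log2 fold change over tumor cells 0.61, adjusted p = 0.00595, higher in 6 of 7 mice, but 0.0918 without replicate 5). At a resolution of 1.0 its sign turned (−0.16, adjusted p = 0.579), as it did with classes from barcode markers alone (−0.15, adjusted p = 0.647).

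The S100a13 difference between T/NK and tumor cells was small (log2 fold change 0.45, edgeR adjusted p = 0.0202, higher in 5 of 7 mice). Its adjusted p exceeded the threshold without each of replicates 1, 2, 3, 4, 5 and 8 in turn, at 0.0513, 0.0656, 0.113, 0.113, 0.311 and 0.0696, and with no filter on low counts the value was 0.07 (adjusted p = 0.959). Against C1q macrophages, S100a13 was higher in other myeloid cells in 7 of 7 mice (log2 fold change 0.94, adjusted p = 0.000797). That call was lost at a resolution of 1.0 (0.38, adjusted p = 0.375) and with classes from barcode markers alone (0.51, adjusted p = 0.320), and with no filter on low counts (0.162) or with the CB series (0.0679) or WT series (0.160) alone. C1q macrophages against tumor cells gave −0.33 (adjusted p = 0.122, but 0.0289 without replicate 5 and 0.0492 without replicate 8), and hormone-sensing cells gave 0.38 (adjusted p = 0.0613, but 0.0146 without replicate 7).

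S100a16 was highest in fibroblasts and endothelial cells and lowest in the immune classes. Fibroblasts held 240 to 438 CPM with a median of 377, and tumor cells 143 to 243 with a median of 195 (log2 fold change 1.11, SE 0.21, edgeR adjusted p = 8.13e-06, higher in 7 of 7 mice). Ranges overlapped at their edges alone. The endothelial mean of 365 ± 132 CPM (n = 3) did not pass the test (log2 fold change 0.78, adjusted p = 0.136). S100a16 was called higher there by DESeq2 (1.12, adjusted p = 0.0150) and in the fit of only the 2 classes (1.05, edgeR adjusted p = 0.0203). Other myeloid cells held 5 UMIs in all, 0 to 23.1 CPM, C1q macrophages 26 and T/NK cells 35. Against tumor cells their log2 fold changes were −4.12 (adjusted p = 7.37e-11), −3.20 (adjusted p = 2.22e-13) and −2.66 (adjusted p = 2.71e-11), lower in 7 of 7 mice in each.

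S100a1 was an epithelial member as well. Hormone-sensing cells held 276 to 513 CPM with a median of 436, tumor cells 206 to 492.7 with a median of 299, and myoepithelial cells 126 to 528 with a median of 257. These 3 classes overlapped, and hormone-sensing cells did not pass the test against tumor cells (log2 fold change 0.34, edgeR adjusted p = 0.153, higher in 7 of 7 mice). The 5 other classes had means of 50.3 to 107 CPM. S100a1 was lower than in tumor cells in endothelial cells (log2 fold change −2.74, adjusted p = 7.11e-05, 3 of 3 mice, 5 UMIs), T/NK cells (−1.99, adjusted p = 4.30e-11), other myeloid cells (−1.75, adjusted p = 8.39e-08), fibroblasts (−1.46, adjusted p = 1.10e-07) and C1q macrophages (−1.33, adjusted p = 2.25e-07), the last 4 in 7 of 7 mice. S100a13, whose start lies 42 bases from that of S100a1, was higher in fibroblasts, where S100a1 was lower.

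The members not yet given did not pass the test, and their edgeR estimates follow. In hormone-sensing cells against tumor cells, the log2 fold change was 0.33 for S100a10 (adjusted p = 0.186), 0.24 for S100a16 (0.419) and −0.41 for S100a9 (0.765). S100a10 passed with cells limited to 500 or more genes (0.53, edgeR adjusted p = 0.00673). The 12 hormone-sensing S100a9 UMIs all came from replicate 4. Myoepithelial cells gave −1.48 for S100a14 (4 UMIs, adjusted p = 0.122), −0.49 for S100a1 (0.171), 0.29 for S100a10 (0.379), −0.20 for S100a16 (0.706), −0.45 for S100a9 (1 UMI, 0.909) and −0.03 for S100a13 (0.949). In fibroblasts S100a9 had 0 UMIs.

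Endothelial estimates from 3 mice were imprecise. S100a8 gave −2.98 (SE 1.30, 3 UMIs, edgeR adjusted p = 0.0947), S100a11 −0.51 (0.174), S100a14 −1.96 (1 UMI, 0.287), S100a10 0.36 (0.395), S100a9 1.09 (1 UMI, 0.822) and S100a6 −0.01 (0.995). Among immune classes against tumor cells, S100a9 was at 1.22 in C1q macrophages (17 UMIs, adjusted p = 0.184), S100a11 at −0.26 in other myeloid cells (0.244) and S100a6 at 0.42 in T/NK cells (0.117). Other myeloid cells against C1q macrophages gave −0.42 for S100a1 (0.450), −0.91 for S100a16 (0.505) and 0.68 for S100a14 (0.724).

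A list of 13 genes for S100 partners and receptors was examined beside the members, and 10 passed the filter on low counts. Anxa11 and the receptors Ager and Tlr4 did not. Against tumor cells, edgeR called 3 of the 10 higher and 1 lower in hormone-sensing cells, where 13.2% and 16.6% of all genes were called. Anxa1, the annexin partner of S100a11, was higher (log2 fold change 2.03, SE 0.28, adjusted p = 1.54e-08), as was Myh9, the myosin partner of S100a4 (0.78, adjusted p = 0.00155). Anxa2, the partner of S100a10, was higher by 0.59 (adjusted p = 0.00580), and Anxa6 was lower (−0.86, adjusted p = 0.000231). Cacybp, the binding protein of S100a6, had a log2 fold change of −0.12 in these cells (adjusted p = 0.658).

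Fibroblasts had 5 partners higher and 1 lower, against 26.2% and 22.4% of all genes. Plat, tissue plasminogen activator, which binds the S100a10 complex with annexin A2, was at 475 ± 156 CPM in fibroblasts and 6.26 ± 5.48 in tumor cells (log2 fold change 6.64, SE 0.30, edgeR adjusted p = 1.36e-28). Ahnak, a scaffold bound by S100a10, was higher by 1.88 (adjusted p = 3.46e-11), and Anxa1, Myh9 and Anxa2 by 0.99, 0.65 and 0.55. Myoepithelial cells had 3 called, each higher (13.6% of all genes), with Plat at 5.19, Fgf1, the growth factor carried by S100a13, at 2.42 and Myh9 at 0.95. Endothelial cells had 2 higher, Plat at 5.22 and Myh9 at 1.15, and 1 lower, Bsg, a receptor for S100a9, at −1.25, where 10.3% and 10.5% of all genes were called.

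In C1q macrophages 1 partner was higher than in tumor cells and 6 were lower, in T/NK cells 1 and 5, and in other myeloid cells 1 and 3. Of all genes, 26.4% and 24.3% were called in C1q macrophages, 26.8% and 25.5% in T/NK cells, and 21.4% and 23.9% in other myeloid cells. In C1q macrophages Anxa2 was lower by a log2 fold change of −1.17 (edgeR adjusted p = 2.17e-07) and Anxa1 by −1.40 (adjusted p = 7.92e-05). Against C1q macrophages, other myeloid cells had 4 partners higher and 1 lower, against 4.08% and 8.44% of all genes: Anxa2 (1.38, adjusted p = 1.27e-07), Anxa6 (1.38), Ahnak (1.05) and Plat (3.24, from 9 UMIs against 2), with Bsg at −1.01.

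Within tumor cells, 4 clusters were formed without the members' counts. They were led by Saa1 and Spp1 (2703 cells), by Scgb2b27 and Lalba (2190), by the interferon-response genes Ifit3 and Isg15 (654), and by Csn1s1 and Krt14 (611). As the same cells define the clusters, their levels are described and not tested. S100a6 averaged 4485 CPM in the Krt14 cluster and 665 in the Lalba cluster, and was higher in the former in 7 of 7 mice. The Krt14 value of replicate 7, 17931 CPM, came from 13 cells, the other 6 mice lying at 1255 to 3493 CPM. In these 13 cells the myoepithelial marker list summed to 2211 CPM, against 805 to 1420 in the other mice. The fibroblast list summed to 699 CPM in replicate 8, the mouse at 3493, against 20.6 to 99.3 in the others. A part of other cell types in these values was not tested. S100a10 was also higher in the Krt14 cluster than in the Lalba cluster in 7 of 7 mice, at 1133 and 523 CPM.

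The Saa1 cluster held the highest mean S100a8 level, 543 CPM, against 273 in the Lalba cluster (higher in 6 of 7 mice) and 125 in the interferon cluster (7 of 7). S100a1 averaged 392 CPM in the Saa1 cluster, above the Lalba cluster (255) and the Krt14 cluster (233) in 7 of 7 mice. S100a11 was at 1571 and 1118 CPM in the Saa1 and Lalba clusters, in that order in 7 of 7 mice.

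**Figure D5:**
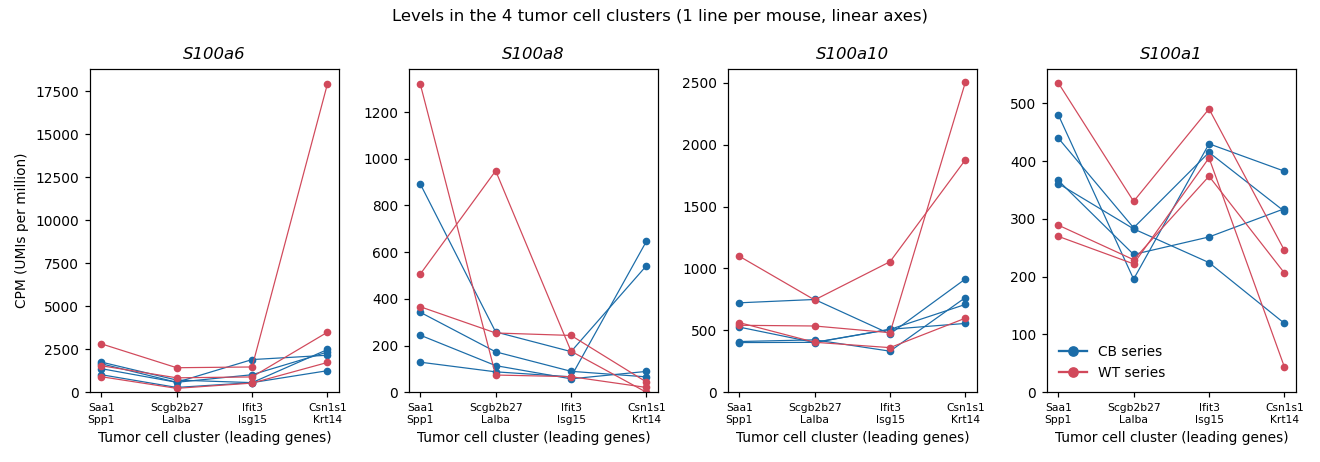
CPM of 4 members in the 4 tumor cell clusters, named on the x axis by leading genes, with 1 line per mouse on linear axes (blue for the CB series, red for the WT series). S100a6 and S100a10 have their highest mean in the Krt14 cluster, 1 mouse reaching 17931 CPM of S100a6, and S100a8 has its highest mean in the Saa1 cluster.

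Across the 8 class means, as log2(CPM + 5), the members most alike were S100a10 and S100a13 (Pearson's r = 0.93) and S100a6 and S100a11 (r = 0.91). S100a8 and S100a9 had r = 0.71. Over 6938 genes with a mean of at least 20 CPM, the genes most like S100a9 were Chil3, Ifitm6 and Retnlg (each r = 0.97). Chil3 and Retnlg are on the lists that named the other myeloid class. Its 15 cells with 5 or more S100a8 and S100a9 UMIs held 0 Chil3 UMIs, against 128 in the rest. For Retnlg these counts were 59 and 4. S100a6 was most like Clip4, Anxa1 and S100a11 (r = 0.92, 0.92 and 0.91), and S100a11 was most like its pseudogene Gm7665, Anxa2 and Rarg (r = 0.94, 0.94 and 0.92). S100a10 was nearest to S100a13, Setd2 and Commd7 (r = 0.93, 0.91 and 0.87). For S100a16 the genes were Hspb8, Ube2r2 and Ormdl3, for S100a1 Rars2, Sdc4 and Dsp, and for S100a14 Metap1, Chmp2a and Gtf3c6. S100a4 was closest to Fam117b, Nr4a3 and Dock10, S100a13 to Gm6265, Kctd10 and Ube2g2, and S100a8 to Pmvk, Dnajc19 and Ahr. These correlations rest on 8 points from the same libraries and are given as a description.

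Other S100 genes were sparse. S100b had 389 UMIs in all cells and S100g 280, S100a3 and S100a7a 42 each, S100a5 19, S100a2 6 and S100z 2. The 10 members had from 451 UMIs (S100a9) to 51625 (S100a6).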

How the data were processed

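Tumors of 7 mice were dissociated with collagenase and profiled by Drop-seq, 1 library per mouse, and each library is a replicate. The authors deposited raw UMI counts per gene and barcode. The submitters' processing notes name STAR, FastQC, GRCh37.p13 and hg19, whereas the study's methods name a mouse genome with the PyMT sequence. Gene symbols are those of mouse, and positions were taken from GENCODE on GRCm38. No column was left unmapped.

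The S100 members, the partner list and the marker lists were chosen with earlier results of these data known. The text names the 10 members in each comparison, the other S100 genes by UMI total, the partner list, and for each member the 3 genes of highest correlation over the class means.

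Barcodes with 200 to 6000 genes, mitochondrial genes dropped, were kept. Doublets were left to the upper limit and no caller was run. Seurat 5.3.0 used 583 variable genes, members left out, with 20 principal components, 30 neighbors and a resolution of 0.6. Clusters were named from the marker lists by a scoring rule set after they were seen. B-cell and hemoglobin clusters were left out of the classes. UMIs were summed per mouse and class where at least 10 cells were present, and edgeR 4.0.16 fitted 1 quasi-likelihood model with class and mouse over 8 classes, with an adjusted p threshold of 0.05. Sums compared come from the same mouse, so the mouse is a block by construction. The totals behind them ranged from 11541 UMIs (T/NK cells of 1 mouse) to 1926262 (tumor cells) in the classes with 7 mice. The SE given with edgeR values was derived from the test, as the absolute log2 fold change divided by the square root of F. It is a rough guide for estimates near 0 or resting on few UMIs. The edgeR fit was tested on simulated counts with no mouse effect and a fixed dispersion. These do not cover genes held by few cells or at 0 in whole mice, such as S100a8 and S100a9 in other myeloid cells. Alternatives were DESeq2 1.42.0, other filters, clusterings and sample subsets, and an exact sign-flip test on log2(CPM + 1) differences per mouse. Analyses ran in R 4.3.3 and Python 3.11.15.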

Additional observations from a re-analysis of the deposited data

Results flagged for a closer look

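In 69 groups of 5 or 7 mice, 15 held a mouse that stood apart from the others by Dixon's test, where chance gives about 1 in 20 for normally distributed values. That rate does not hold where nearly all mice are at 0 and a single UMI sets a mouse apart, so the number found is not read against it.

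S100a8 and S100a9 accounted for 7 of these. S100a8 in T/NK cells was at 140 CPM in replicate 7 (43 UMIs), where the next mouse was at 11.5, and S100a9 in the same cells was at 71.7 against 3.93. S100a9 in other myeloid cells was at 2777 CPM in replicate 7 against 1085. S100a9 was also high in replicate 4, at 16.7 CPM in tumor cells against 4.67, at 8.01 in hormone-sensing cells against 0 (12 UMIs) and at 7.96 in myoepithelial cells against 0 (1 UMI). S100a8 in fibroblasts was at 34.3 CPM in replicate 1 (3 UMIs) against 11.7.

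S100a4 was at 45.2 CPM in tumor cells of replicate 5 (38 UMIs in 5 cells) against 19.98, and at 382 CPM in myoepithelial cells of replicate 4 against 159. In C1q macrophages of replicate 1, S100a1 was at 212 CPM against 114 and S100a10 at 486 against 287. S100a10 in myoepithelial cells was low in replicate 7, at 528 CPM against 820 (14 UMIs from 12 cells). S100a14 stood apart on 1 or 2 UMIs, at 2.86 CPM in fibroblasts of replicate 8, 22.8 in C1q macrophages of replicate 2 and 33.2 in T/NK cells of replicate 3.

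Barcodes with fewer than 200 genes, which were not counted as cells and entered no test, held 707 CPM of S100a8 and 592 CPM of S100a9 over all libraries, above the 1.17 CPM that a count of 0 allows. Of 21950 such barcodes, 149 had 5 or more UMIs of the pair and held 86.3% of them. The granulocyte list (Csf3r, Cxcr2, Retnlg, G0s2, Il1b, Hdc, Acod1 and Clec4d) summed to 34663 CPM in those 149, 12137 to 47139 by library, and to 233 to 1206 CPM by library in the rest.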

How the results depend on the processing

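Of 1571 estimates over the 10 members, 8 comparisons and all alternatives, 1394 kept their direction and their side of the threshold. Of 50 calls, 31 held under every alternative that gave a value and 41 held with each mouse left out in turn. Calls lost under at least 1 alternative were S100a11 in hormone-sensing cells, S100a6, S100a8 and S100a11 in myoepithelial cells, S100a13 in endothelial cells, S100a6 and S100a10 in C1q macrophages, S100a6, S100a8, S100a9, S100a10, S100a13 and S100a14 in other myeloid cells and S100a10, S100a13 and S100a14 in T/NK cells, all against tumor cells, and S100a8, S100a9 and S100a13 in other myeloid cells against C1q macrophages. In 47 estimates a member not called in the main fit was called in the same direction, in some by the unadjusted sign-flip p. Among them, S100a11 in other myeloid against tumor cells was −0.85 with classes from barcode markers alone (edgeR adjusted p = 0.000171). With no filter on low counts it was −0.70 (edgeR adjusted p = 0.00305). S100a8 and S100a11 in endothelial cells were also called lower under some alternatives, and S100a10 and S100a16 higher. S100a10 was called higher by DESeq2 in endothelial (0.74, adjusted p = 0.0315) and myoepithelial cells (0.62, adjusted p = 0.0180). In myoepithelial cells it was also called with classes from barcode markers alone (0.96, edgeR adjusted p = 0.00472). With no filter on low counts the S100a10 values turned to −0.25 in endothelial and −0.32 in myoepithelial cells. Numbers of members called moved by over 1.5 times as follows, with no share of all genes counted under the alternatives. In hormone-sensing cells (4) the sign-flip test called 8, by an unadjusted p under 0.05 where the edgeR calls were adjusted over all genes. In myoepithelial cells (4) the fit with no replicate block called 1 and the WT series alone 2, and leaving out mice gave 2 to 4. In endothelial cells (2) DESeq2 and the fit of only the 2 classes called 4, no replicate block, the CB series alone and the WT series alone 1 each, and leaving out mice gave 1 to 2. In other myeloid against tumor cells (9) the WT series alone called 5, and in T/NK cells (8) classes from barcode markers alone called 5. Without the block on mouse, T/NK cells had 6 members called, and the numbers in the other 5 comparisons did not change.

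The sign turned in 38 estimates that were called in neither setting, and in 7 that were called in at least 1. Of these 7, with classes from barcode markers alone, S100a9 and S100a14 were higher in myoepithelial than tumor cells (4.43 and 3.05) and S100a13 in other myeloid cells was −0.15. At resolution 1.0, S100a10 and S100a13 in other myeloid cells were −0.30 and −0.16. With 9 principal components S100a10 in C1q macrophages was 0.0067, and by the sign-flip mean S100a8 in other myeloid cells was −1.06. The cause was not tested. Counting the hemoglobin cluster as tumor cells was an alternative chosen after seeing the data. With 9 principal components no myoepithelial, endothelial or other myeloid class formed, and with at least 500 genes no other myeloid class. The sign-flip test was not counted for myoepithelial and endothelial cells, where p cannot go below 0.0625 and 0.25. Low UMI totals limit S100a14 and S100a16 in immune cells and every endothelial estimate.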

Other observations

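S100b, a member known from glia, was highest in myoepithelial cells, at 37.7 to 773 CPM over 5 mice with a mean of 367 ± 364, the other classes having means of 24 CPM or less. S100g, the intestinal calcium-carrier calbindin-D9k, had 269 of its 280 UMIs in tumor cells, at 0 to 102 CPM by mouse.

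Hemoglobin-rich cells (411 cells) were left out of the classes of the report. The tumor markers PYMT and Trf were among their leading genes beside hemoglobin genes, so their levels are not read as those of erythroid cells alone. In the 4 mice with at least 10 such cells they held 540 CPM of S100a8 (77 to 1009 by mouse) and 273 of S100a9 (0 to 859). The B-cell cluster held 18.0 CPM of S100a4. C1q macrophages fell into 2 clusters, and the smaller one, led by Ccl8 and holding the tissue-macrophage genes Lyve1 and Mrc1, was compared in 4 mice as a description. It held 1359 CPM of S100a6 against 302 in the larger cluster, and 1260 of S100a10 against 173, each higher in 4 of 4 mice. S100a11 was at 47.4 CPM in it against 249, lower in 4 of 4 mice.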
